A study of Mus musculus with 12 samples.

Results

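The genes described here encode surface and matrix proteins of oligodendrocyte precursors: Pdgfra, Cspg4, Gpr17, Ptprz1, Vcan, Lhfpl3, Scrg1 and Col19a1. They were chosen by name. An Affymetrix probe set is a group of short probes that reads part of a gene's transcripts. Each probe set annotated to exactly 1 of these symbols was followed over all samples. All 8 genes were found, with 21 of the 22339 probe sets that carried 1 symbol. After a filter on low values, 18 of the 21 probe sets and all 8 genes were among the 16000 probe sets and 8791 genes tested.

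The study sorted fluorescent cells from the embryonic mouse cortex to compare migrating cells of the medial and of the caudal ganglionic eminence (MGE and CGE), the ventral forebrain zones that send interneurons to the cortex. There were 4 groups of 3 arrays: MGE cells at E14.5 and at E18.5, and CGE cells at E16.5 and at E18.5, with E the embryonic day. MGE cells came from embryos with the Cre transgene Nkx2-1-Cre Tg, which acts where Nkx2-1 is expressed, and the reporter R26R-YFP fl/fl, in which Cre permanently switches on YFP in a cell and its descendants. CGE cells came from Nkx2-1-Cre;Dlx1-lox-Venus-lox embryos, in which Venus depends on Dlx1, a gene of the GABAergic lineage, and Cre removes it. All 4 groups thus carried Nkx2-1-Cre, while the reporter differed between MGE and CGE cells, so lineage and reporter cannot be told apart. Embryos were pooled before sorting, and the sources used here do not give how many stood behind an array. The labels call the 3 arrays of a group biological replicates.

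Oligodendrocyte precursors are dividing glial cells that settle throughout the brain and later give rise to myelinating oligodendrocytes. In the embryonic forebrain a first wave arises ventrally, in Nkx2-1-expressing territory, and reaches the cortex alongside the migrating interneurons, and later waves arise more dorsally. These cells sense growth factors through surface receptors and carry or secrete proteoglycans, proteins with long chondroitin sulfate chains that bind growth factors, hyaluronan and adhesion molecules.

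The promoter windows of the 4 genes that separated the lineages at both comparisons towards MGE cells are given first, because they are the stretches of DNA just before the start of the genes whose levels are followed in the rest of the text. Each is the 250 bases before the gene's start in RefSeq, build GRCm38.p6, read 5′ to 3′ on the gene's strand. The windows lie at chr5:75152001-75152250 on the plus strand for Pdgfra, chr9:56864854-56865103 on the plus strand for Cspg4, chr5:22745804-22746053 on the plus strand for Lhfpl3 and chr1:24587438-24587687 on the minus strand for Col19a1. Capitals mark a match to 1 of 4 motifs searched on both strands, the SOX motifs ACAAAG and ACAATG and the E-box motifs CAGCTG and CATCTG.
Pdgfra: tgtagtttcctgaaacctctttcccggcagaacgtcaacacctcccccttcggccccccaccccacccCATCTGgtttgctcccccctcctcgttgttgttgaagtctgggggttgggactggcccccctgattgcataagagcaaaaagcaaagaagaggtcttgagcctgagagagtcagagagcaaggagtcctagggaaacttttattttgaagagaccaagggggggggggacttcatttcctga
Cspg4: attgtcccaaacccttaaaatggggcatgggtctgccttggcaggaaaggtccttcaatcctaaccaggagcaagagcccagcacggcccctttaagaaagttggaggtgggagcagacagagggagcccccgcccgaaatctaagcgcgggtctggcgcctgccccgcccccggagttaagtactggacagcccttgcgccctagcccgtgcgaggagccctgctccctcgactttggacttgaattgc
Lhfpl3: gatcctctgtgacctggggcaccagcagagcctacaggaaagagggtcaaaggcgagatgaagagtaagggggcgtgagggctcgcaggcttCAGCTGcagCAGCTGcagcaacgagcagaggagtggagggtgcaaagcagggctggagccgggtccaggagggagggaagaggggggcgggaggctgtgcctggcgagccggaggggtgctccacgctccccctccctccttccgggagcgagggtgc
Col19a1: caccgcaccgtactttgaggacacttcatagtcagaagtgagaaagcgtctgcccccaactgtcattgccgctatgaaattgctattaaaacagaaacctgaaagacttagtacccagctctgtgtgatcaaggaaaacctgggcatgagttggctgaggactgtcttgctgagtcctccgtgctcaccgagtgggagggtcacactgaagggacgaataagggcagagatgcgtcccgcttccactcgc

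A window was available for 6 of the 8 genes, also Ptprz1 and Vcan. CATCTG occurred in 1 of the 6 windows, that of Pdgfra, with its first base 182 bases before the start. CAGCTG occurred in 1 of the 6, that of Lhfpl3, in 2 copies that began 158 and 149 bases before the start. Neither SOX motif was found in any of the 6 windows. At least 1 of the 4 motifs was thus present in 2 of the 6 windows, and in 44.1% of all 32851 RefSeq windows of this length. Taken singly, ACAAAG was present in 16.46% of all windows, ACAATG in 10.7%, CAGCTG in 13% and CATCTG in 14.4%. The GC content was 54.4% for Pdgfra, 60.4% for Cspg4, 67.2% for Lhfpl3, 52% for Col19a1, 71.6% for Ptprz1 and 62.4% for Vcan, against a median of 52.4% over all windows. These matches describe the letters of the windows only, and no binding was measured.

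The 12 arrays were alike in scale, with medians of the deposited log2 intensity between 7.75 and 7.81 and correlations of 0.97 to 0.99 between replicates. A probe set entered the tests if it exceeded the 40th percentile of its array, a level of 7.10 to 7.17, on at least 3 arrays. Such low values may be background, so a difference against a group below this level is given as measured and may understate the true one. Differences are given on the log2 scale with the SE of a limma fit to 3 arrays per group, and a gene was called when its p, adjusted over all genes tested, was under 0.05. Values of different probe sets are not set against each other, since each probe set has its own affinity.

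In MGE cells 7 of the 8 genes rose steeply to E18.5, where 11.4% of all tested genes rose. At that age the same 7 stood above CGE cells, where 13% of all tested genes did, whereas Vcan was bright in all 4 groups. The late difference was 1.70 for Ptprz1 and 5.23 or more for the others of the 7. Pdgfra, Cspg4, Gpr17, Lhfpl3, Scrg1 and Col19a1 passed the filter only through MGE arrays, so these counts are descriptions. Between the earlier groups the picture was mixed: Pdgfra, Cspg4, Lhfpl3 and Col19a1 were already higher in MGE cells, Ptprz1 was lower, and Gpr17, Scrg1 and Vcan did not pass the test. In CGE cells none of the 8 was called higher at E18.5 than at E16.5. Col19a1 was called lower, but its CGE values were under the filter level and the call did not hold in every setting. In such sorted bulk samples, fewer cells of a type and less RNA per cell cannot be told apart.

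**Figure D1:**
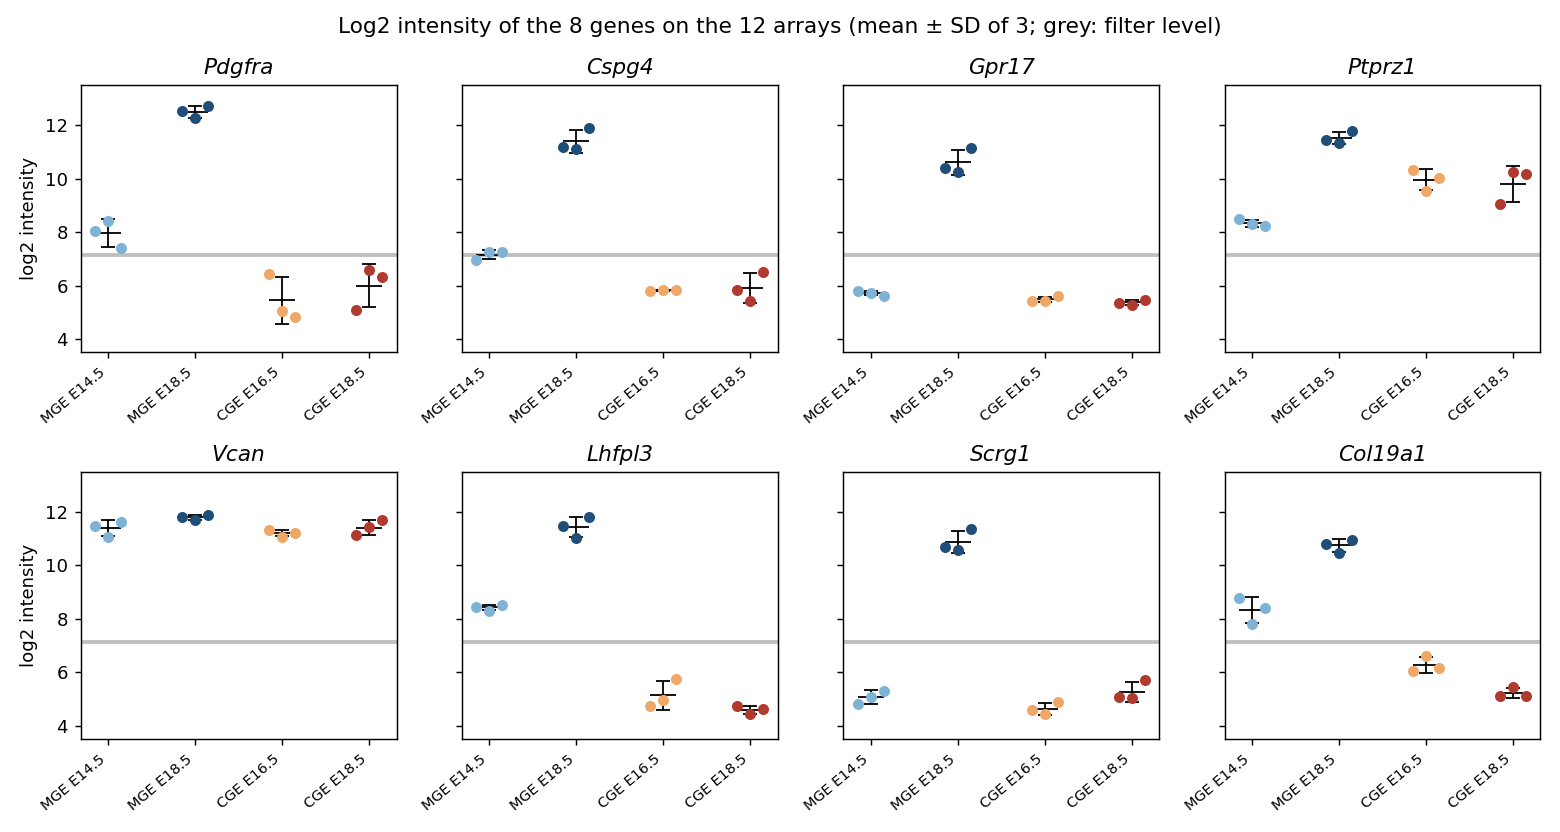
Log2 intensity of the probe set with the highest mean for each of the 8 genes (vertical axis) on the 12 arrays, by group (horizontal axis). Points are arrays, horizontal lines the mean of 3 arrays, bars the SD, and the grey line the filter level of 7.10 to 7.17. Pdgfra on MGE E18.5 arrays lay between 12.25 and 12.70, above all other groups, while Vcan lay between 11.06 and 11.86 everywhere.

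The receptors come first. Pdgfra encodes the receptor tyrosine kinase for PDGF-A that drives division and survival of oligodendrocyte precursors. Its log2 intensity was 8.03, 8.43 and 7.42 on the MGE E14.5 arrays, 12.52, 12.25 and 12.70 on the MGE E18.5 arrays, 6.44, 5.07 and 4.83 on the CGE E16.5 arrays and 5.08, 6.59 and 6.33 on the CGE E18.5 arrays. Both MGE groups lay above every CGE array, and the CGE groups overlapped each other and stayed under the filter level. At E18.5 MGE cells exceeded CGE cells by 6.48 ± 0.45 on the log2 scale (limma, adjusted p = 9.7e-07). The earlier lineage difference was 2.51 ± 0.45 (adjusted p = 0.00379). Within the MGE lineage the level rose by 4.52 ± 0.45 (adjusted p = 2.6e-05), while the difference between the CGE ages was 0.55 ± 0.45 (adjusted p = 0.472). In order, MGE E18.5 was highest and MGE E14.5 next, and the 2 CGE groups did not differ beyond their spread.

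Pdgfra was read by 3 probe sets past the filter, 2 of them above the filter level on the MGE E18.5 arrays only. At E18.5 they differed between lineages by 6.54 ± 0.21, 6.48 ± 0.45 and 3.78 ± 0.23, each higher in MGE cells. In the earlier comparison the first was 1.75 ± 0.21 and the second, which alone was above the filter level in MGE E14.5, was 2.51 ± 0.45, both called. The third averaged 4.67 in MGE E14.5 and 4.47 in CGE E16.5, both under the filter level, and its 0.19 ± 0.23 there says little about an early difference. All 3 rose with age in MGE cells, by 5.20, 4.52 and 3.71.

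Gpr17 encodes a G protein-coupled receptor, related to the receptors for nucleotides and cysteinyl leukotrienes, that marks precursors on the way to becoming oligodendrocytes. Its values were 5.79, 5.74 and 5.63 on the MGE E14.5 arrays, 10.41, 10.26 and 11.14 on the MGE E18.5 arrays, 5.42, 5.42 and 5.61 on the CGE E16.5 arrays and 5.37, 5.29 and 5.46 on the CGE E18.5 arrays. The 9 arrays outside MGE E18.5 were all under the filter level, and the gene was tested only through that group. The late lineage difference was 5.23 ± 0.19 (adjusted p = 7.3e-09), and the rise in MGE cells was 4.89 ± 0.19 (adjusted p = 2.8e-08). Neither the early difference of 0.23 ± 0.19 (adjusted p = 0.519) nor the CGE difference of -0.11 ± 0.19 (adjusted p = 0.746) passed the test. After MGE E18.5, the other 3 groups did not differ by any tested comparison. Gpr17 had 1 probe set, so no second reading was at hand.

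Of the proteoglycans, Cspg4 encodes NG2, a transmembrane proteoglycan so typical of these precursors that they are also called NG2 glia. It read 6.96, 7.25 and 7.26 on the MGE E14.5 arrays, 11.18, 11.11 and 11.89 on the MGE E18.5 arrays, 5.79, 5.83 and 5.84 on the CGE E16.5 arrays and 5.82, 5.42 and 6.52 on the CGE E18.5 arrays. Both MGE groups lay above every CGE array, with 2 of the 3 MGE E14.5 arrays above the filter level. Cspg4 differed between lineages by 5.47 ± 0.26 at E18.5 (adjusted p = 4.2e-08), and by 1.34 ± 0.26 between the earlier groups (adjusted p = 0.00622). The MGE rise was 4.24 ± 0.26 (adjusted p = 3.9e-07), and the CGE difference was 0.10 ± 0.26 (adjusted p = 0.839). A second probe set, above the filter level on the MGE E18.5 arrays only, gave 3.24 ± 0.19 at E18.5 (adjusted p = 2.0e-07). On the earlier arrays it averaged 5.28 in MGE and 5.12 in CGE cells, both under the filter level, so its early value of 0.16 ± 0.19 says little about the early difference.

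Ptprz1 encodes a receptor tyrosine phosphatase that carries chondroitin sulfate, is found on precursors and on radial glia, and binds the growth factor pleiotrophin. It read 8.48, 8.30 and 8.21 on the MGE E14.5 arrays, 11.44, 11.33 and 11.78 on the MGE E18.5 arrays, 10.30, 9.54 and 10.03 on the CGE E16.5 arrays and 9.04, 10.24 and 10.15 on the CGE E18.5 arrays. It was above the filter level on all 12 arrays, with MGE E14.5 the lowest group and MGE E18.5 the highest. The earlier groups differed by -1.63 ± 0.29, lower in MGE cells (adjusted p = 0.00363), and the later groups by 1.70 ± 0.29, higher in MGE cells (adjusted p = 0.00126). The sign of the lineage difference thus turned between the comparisons, through a rise of 3.19 ± 0.29 in MGE cells (adjusted p = 1.2e-05) beside -0.15 ± 0.29 in CGE cells (adjusted p = 0.791). All 3 probe sets showed the turn, with early differences of -1.29, -1.63 and -1.61 and late ones of 2.72, 1.70 and 1.67, each called.

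Vcan encodes versican, a secreted proteoglycan that binds hyaluronan and is made by precursors and by many other cells. It read 11.49, 11.06 and 11.63 on the MGE E14.5 arrays, 11.81, 11.69 and 11.86 on the MGE E18.5 arrays, 11.31, 11.08 and 11.21 on the CGE E16.5 arrays and 11.12, 11.42 and 11.70 on the CGE E18.5 arrays. The groups overlapped in all comparisons but that of the MGE ages. No difference passed the test: 0.19 ± 0.17 early (adjusted p = 0.572), 0.38 ± 0.17 late (adjusted p = 0.139), 0.40 ± 0.17 with age in MGE cells (adjusted p = 0.129) and 0.21 ± 0.17 with age in CGE cells (adjusted p = 0.471). Of the 4 probe sets past the filter, 1 was called late, at 0.49 ± 0.15 (adjusted p = 0.0313), and another pointed the other way at -0.80 ± 0.28 (adjusted p = 0.0597). As a marker of precursors in these sorted cells, Vcan did not separate the groups as the other 7 genes did at E18.5.

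Of the remaining membrane and secreted proteins, Lhfpl3 encodes a tetraspan membrane protein of the LHFPL family. It read 8.44, 8.31 and 8.53 on the MGE E14.5 arrays, 11.47, 11.03 and 11.80 on the MGE E18.5 arrays, 4.73, 4.97 and 5.76 on the CGE E16.5 arrays and 4.74, 4.43 and 4.63 on the CGE E18.5 arrays. Every MGE array lay above the filter level and every CGE array below it. The late difference was 6.83 ± 0.25 (adjusted p = 7.3e-09). The early difference was 3.28 ± 0.25 (adjusted p = 6.5e-06), and a second probe set gave 2.93 early and 5.98 late, both called. The level rose by 3.01 ± 0.25 with age in MGE cells (adjusted p = 5.7e-06), beside -0.55 ± 0.25 in CGE cells (adjusted p = 0.184).

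Scrg1 encodes a small secreted protein first described in prion-infected brain. It read 4.83, 5.09 and 5.32 on the MGE E14.5 arrays, 10.68, 10.57 and 11.34 on the MGE E18.5 arrays, 4.57, 4.44 and 4.88 on the CGE E16.5 arrays and 5.07, 5.05 and 5.71 on the CGE E18.5 arrays. As with Gpr17, the 9 arrays outside MGE E18.5 were under the filter level, so the gene was tested only through its bright group. Its rise with age in MGE cells was 5.79 ± 0.24 (adjusted p = 3.5e-08), measured from MGE E14.5 readings under that level. The late lineage difference was 5.59 ± 0.24 (adjusted p = 1.9e-08) and the early one 0.45 ± 0.24 (adjusted p = 0.302). In CGE cells the later arrays were above the earlier ones without overlap, at 0.65 ± 0.24, which did not pass the test (adjusted p = 0.108).

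Col19a1 encodes a FACIT collagen, a family of short, interrupted collagens that decorate larger fibrils. It read 8.78, 7.81 and 8.42 on the MGE E14.5 arrays, 10.80, 10.46 and 10.96 on the MGE E18.5 arrays, 6.07, 6.61 and 6.15 on the CGE E16.5 arrays and 5.12, 5.44 and 5.10 on the CGE E18.5 arrays. The 4 groups did not overlap, in the order MGE E18.5, MGE E14.5, CGE E16.5 and CGE E18.5, the latter pair under the filter level. MGE cells were higher by 2.06 ± 0.24 early (adjusted p = 0.000159) and by 5.52 ± 0.24 late (adjusted p = 2.1e-08), with a rise of 2.40 ± 0.24 between the MGE ages (adjusted p = 2.4e-05). Col19a1 alone among the 8 genes fell with age in CGE cells, by 1.05 ± 0.24 on the log2 scale (adjusted p = 0.0178). This fall did not hold throughout: without CGE E16.5 replicate 2 it was -0.89 (adjusted p = 0.0599), and both CGE groups were under the filter level. A second probe set, above that level on the MGE E18.5 arrays only, gave -0.24 ± 0.20 with age in CGE cells (adjusted p = 0.473), and 1.61 early, 3.84 late and 1.99 with age in MGE cells, the latter 3 called.

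**Figure D2:**
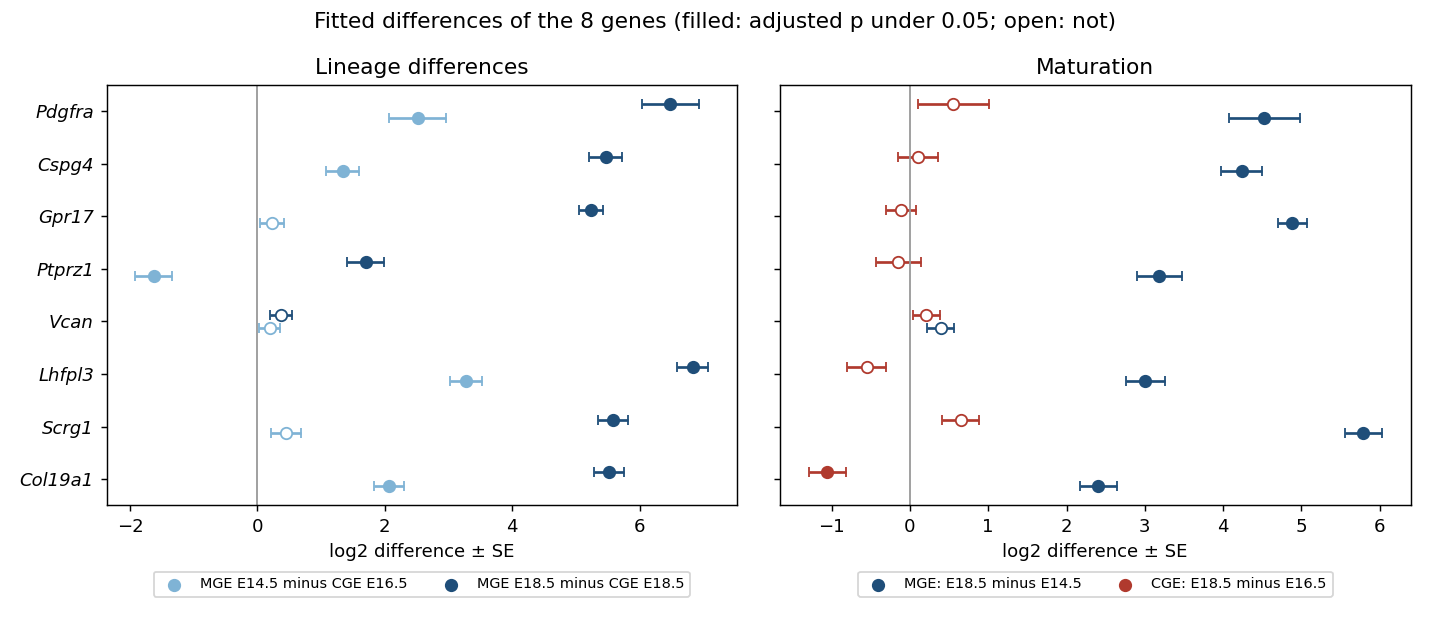
Fitted log2 differences (horizontal axis, ± SE) of the 8 genes (vertical axis), lineage differences on the left and changes with age on the right; filled points had an adjusted p under 0.05. At E18.5 the lineage differences ran from 0.38 for Vcan to 6.83 for Lhfpl3, and the CGE changes lay between -1.05 and 0.65.

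The counts over the 8 genes describe them and support nothing by themselves, since 6 of the 8 passed the filter only through MGE arrays. Gpr17 and Scrg1 did so through MGE E18.5 alone, Pdgfra, Cspg4, Lhfpl3 and Col19a1 through both MGE groups, and only Ptprz1 and Vcan were above the filter level in both lineages. In the earlier comparison, MGE E14.5 minus CGE E16.5, 4 of the 8 were called higher and 1 lower, where 10.0% of all tested genes were called, 4.15% higher and 5.89% lower. The median of the 8 was 0.89, against -0.02 for all genes. The 2 groups differ in day as well as in lineage, which cannot be told apart here. The share of all genes called depended on the MGE E14.5 arrays, at 6.02% without replicate 1 and 6.36% without replicate 2, while the members' counts stayed at 4 and 1.

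At E18.5, 7 of the 8 were called higher in MGE cells and none lower, where 22.8% of all tested genes were called, 13% higher and 9.85% lower. The median of the 8 was 5.50, against -0.02 for all genes. With age in MGE cells 7 of the 8 rose, with a median of 3.71 against -0.06, where 21.2% of all genes were called, 11.4% higher and 9.77% lower. The total was 13.9% without MGE E14.5 replicate 1, 13.8% without replicate 2 and 13.3% without MGE E18.5 replicate 3, with 7 members called each time. With age in CGE cells 1 of the 8 was called, where 10.9% of all genes were, 4.52% higher and 6.39% lower. The CGE total was 4.24% without CGE E16.5 replicate 3 and 5.41% without CGE E18.5 replicate 2. The comparisons share arrays, so these counts are not independent of each other.

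The rise in MGE cells exceeded the change in CGE cells for the same 7 genes when the difference of the 2 changes was tested directly, where 8.62% of all genes were called, 6.75% higher and 1.88% lower. It was 5.14 ± 0.34 for Scrg1, 4.998 ± 0.27 for Gpr17, 4.13 ± 0.37 for Cspg4, 3.97 ± 0.64 for Pdgfra, 3.56 ± 0.35 for Lhfpl3, 3.46 ± 0.34 for Col19a1 and 3.33 ± 0.41 for Ptprz1, with adjusted p between 1.4e-06 and 0.00207. For Vcan it was 0.18 ± 0.24 (adjusted p = 0.717). The MGE interval spans E14.5 to E18.5 and the CGE interval E16.5 to E18.5, so lineage and length of interval cannot be told apart in this test. Of the 7 genes, all but Ptprz1 passed the filter only through MGE arrays, so their values here are descriptions.

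Counted by probe set, 10 of the 18 past the filter were called in the earlier comparison, 7 higher and 3 lower, where 9.64% of all 16000 probe sets were called. At E18.5 15 of the 18 were higher and none lower, where 22.6% of all probe sets were called. With age in MGE cells 14 of the 18 rose, where 19.4% were called, and 14 did in the test of the 2 changes, where 9.24% were. With age in CGE cells 1 of the 18 was called, where 10.2% of all were. Of the 18, 6 exceeded the filter level on MGE E18.5 arrays only and so entered the test through the group where they are high: a pair for Pdgfra and 1 each for Cspg4, Gpr17, Scrg1 and Col19a1. These 6 are among the 15, so that count is a description. Probe sets of 1 gene can read different transcript ends of that gene and are not independent.

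**Figure D3:**
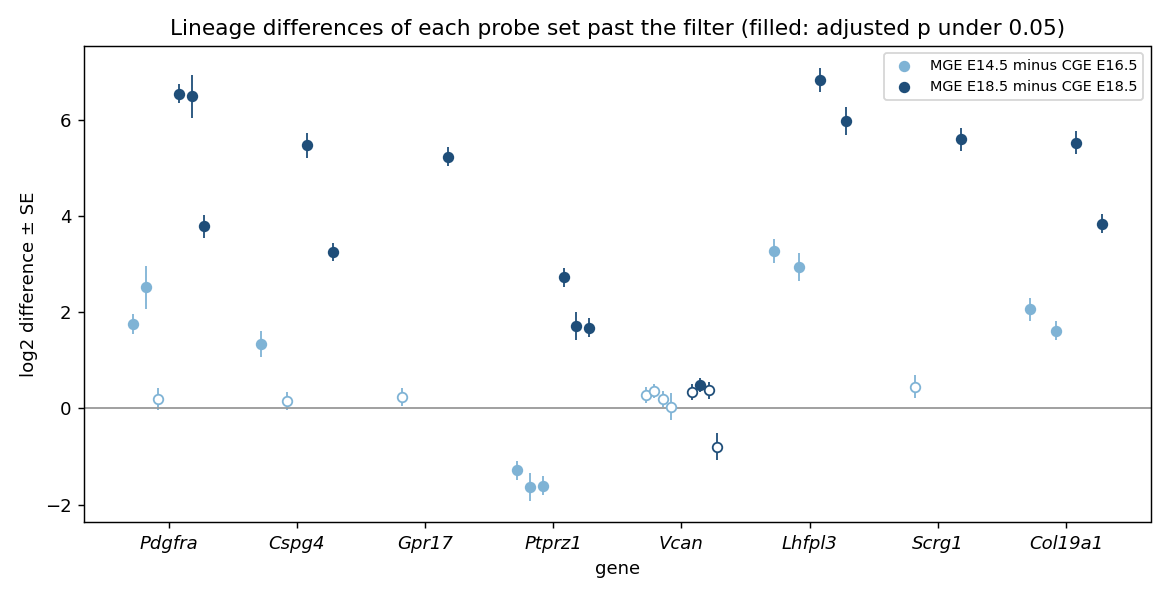
Log2 lineage difference ± SE (vertical axis) of each of the 18 probe sets past the filter, by gene (horizontal axis), between the earlier groups (light) and at E18.5 (dark); filled points had an adjusted p under 0.05. All 3 Ptprz1 probe sets lie below 0 early and above 0 late, and 1 Pdgfra and 1 Cspg4 probe set lie near 0 early, at 0.19 and 0.16, where they were under the filter level in both groups.

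Read by the probe set that stood for each gene, the members varied together among the 3 MGE E18.5 arrays. On these probe sets replicate 3 read highest and replicate 2 lowest for all 8 genes. Over all genes tested replicate 3 was highest for 41.2% and replicate 2 lowest for 35.8%. The further tested probe sets of Ptprz1, Lhfpl3 and Col19a1 kept this order, but those of Pdgfra, Cspg4 and Vcan did not all keep it. On a further Vcan probe set replicate 3 even read lowest, so the shared order depended on the probe set chosen. The other 3 groups had no array that was highest for more than 4 of the 8. The mean of the precursor transcription factors Olig1, Olig2, Sox10 and Nkx2-2 followed the same order, at 10.90, 10.65 and 11.45 on replicates 1 to 3. The mean of 12 interneuron markers was 10.49, 10.43 and 10.21 on these arrays. The part of cell composition in these differences between replicates was not tested.

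Markers of other cell types are given beside the members because the sorted cells could hold several. The 4 transcription factors named above were called higher in MGE cells in both lineage comparisons, at 3.64 early and 6.42 late for Olig1, 1.10 and 4.39 for Olig2, 1.58 and 6.13 for Sox10, and 1.61 and 6.49 for Nkx2-2. Sox10 averaged 6.21 in MGE E14.5 and 4.62 in CGE E16.5, and Nkx2-2 averaged 5.92 and 4.31. These means lie under the filter level, so both early values may reflect background. On average both genes exceeded that level in MGE E18.5 only. The mean of the 4 factors over an array was 6.58 to 6.86 in MGE E14.5, 10.65 to 11.45 in MGE E18.5, 4.57 to 4.84 in CGE E16.5 and 5.01 to 5.26 in CGE E18.5. The mean of the 6 members other than Ptprz1 and Vcan was also highest in MGE E18.5 and next in MGE E14.5, at 7.10 to 7.14, 10.95 to 11.64, 5.39 to 5.51 and 5.20 to 5.63 in the same order of groups, and its 2 CGE ranges overlapped. Only Olig1 of the 4 factors also rose in CGE cells, by 1.03 ± 0.26 (adjusted p = 0.0285).

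A wider list of 22 precursor genes without the 8 members was chosen with earlier results of these data known, and 15 were tested. Of these, 13 were higher in MGE cells at E18.5, with a median of 2.75, where 13% of all tested genes were higher. Olig1, Olig2, Sox10 and Nkx2-2 are among the 15. On average Sox10, Nkx2-2 and the proteoglycan gene Bcan exceeded the filter level in MGE E18.5 only, so the count is a description. The leading ones after the transcription factors were Emid1, an extracellular matrix protein gene, at 4.64 ± 0.29 and the proteoglycan gene Cspg5 at 4.19 ± 0.28. In the earlier comparison 5 were higher, the transcription factors among them, and 1 was lower. The median was 0.15, and of all tested genes 4.15% were higher and 5.89% lower. Of 5 tested markers of committed and myelinating oligodendrocytes, 4 were higher at E18.5, against 13% of all tested genes, and none was called early. These were Itpr2, an intracellular calcium channel, at 4.52 ± 0.23, Bcas1, a marker of newly forming oligodendrocytes, at 4.24 ± 0.42, Ugt8a, an enzyme of myelin lipid synthesis, at 4.22 ± 0.34, and the myelin enzyme Cnp at 2.84 ± 0.25. The mean of the 5 on an array was 9.37 to 9.97 in MGE E18.5, against 6.75 to 7.04 in MGE E14.5, 6.15 to 6.74 in CGE E16.5 and 5.99 to 6.73 in CGE E18.5.

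Of 10 tested markers of radial glia and astrocytes, 6 were higher and 1 lower in MGE cells at E18.5. Over all tested genes 13% were higher and 9.85% lower. The glutamate transporter gene Slc1a3 was 2.73 ± 0.28, the Notch target Hes5 2.45 ± 0.49 and the fatty acid binding protein gene Fabp7 1.88 ± 0.15, while the transcription factor Pax6 was -5.25 ± 0.32. The mean of the 10 was 8.20 to 8.75 in MGE E14.5, 10.02 to 10.14 in MGE E18.5, 8.96 to 9.39 in CGE E16.5 and 9.54 to 9.86 in CGE E18.5. Ptprz1 and its ligand Ptn are also expressed by radial glia, and the part of these cells in the Ptprz1 values was not tested.

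The sorted cells carried strong interneuron signal in all groups. The mean of the 12 interneuron markers tested was 10.53 to 10.66 in MGE E14.5, 10.21 to 10.49 in MGE E18.5, 11.26 to 11.58 in CGE E16.5 and 11.11 to 11.27 in CGE E18.5. The 12 include factors of 1 lineage, such as Sp8 for CGE and Lhx6 for MGE cells, so their mean does not compare interneuron content between lineages. At E18.5, 2 of the 12 were higher in MGE cells and 7 lower, against 13% and 9.85% of all tested genes. The 2 were the MGE lineage factors Lhx6 (1.97 ± 0.23) and Sox6 (2.00 ± 0.20). The 7 included the CGE lineage factors Sp8 (-7.48 ± 0.13) and Prox1 (-2.55 ± 0.19), the pan-interneuron enzyme gene Gad1 (-0.79 ± 0.18) and Dlx1 (-0.95 ± 0.12), on which the Venus reporter depends. With age in MGE cells 7 of the 12 fell and 1 rose, against 9.77% and 11.4% of all tested genes.

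The remaining cell types were sparsely read by this table. Of 10 microglial markers listed, 2 were tested, Csf1r and C1qb, and both rose with age in both lineages, and neither was called between lineages. Their mean was 4.29 to 5.003 in MGE E14.5, 6.70 to 7.35 in MGE E18.5, 4.86 to 6.19 in CGE E16.5 and 6.79 to 7.91 in CGE E18.5. The pericyte marker Rgs5 was 4.56 to 5.28, 7.30 to 7.70, 5.46 to 5.88 and 5.92 to 7.93 in the same order, and rose with age in MGE cells by 2.59 ± 0.41. Of 9 markers of meningeal fibroblasts listed, 1 had a probe set with 1 symbol, and it did not pass the filter. The 1 erythroid marker tested, the globin gene Hba-a2, read 12.47 to 12.81 on all arrays. Neither it nor the 2 pallial neuron markers tested were called in any comparison, and of 2 Cajal-Retzius markers 1 was higher in MGE cells in both lineage comparisons.

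**Figure D4:**
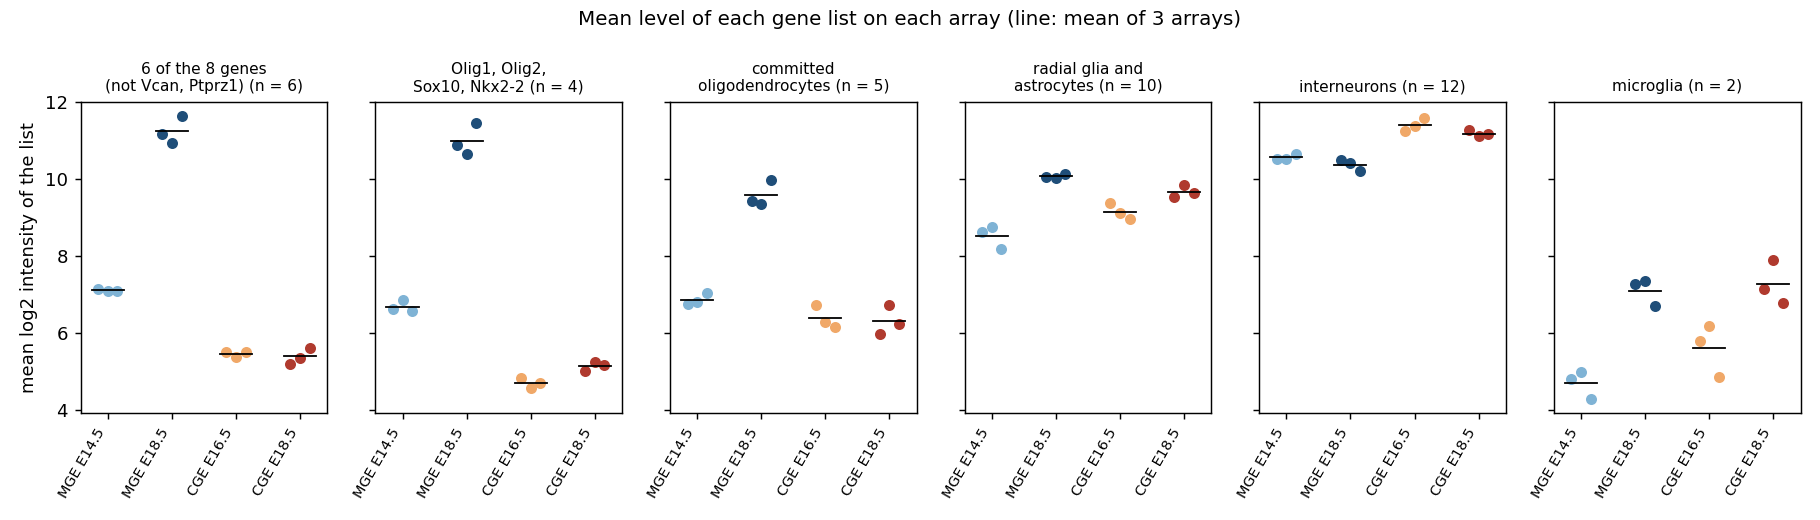
Mean log2 intensity (vertical axis) of 6 of the 8 genes and of 5 marker lists on each array, by group (horizontal axis); points are arrays and lines the mean of 3. The 6 genes, the 4 transcription factors and the oligodendrocyte markers were highest on the MGE E18.5 arrays, while interneuron markers stayed between 10.21 and 11.58 everywhere.

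The partners and relatives of the members were read in the same fits. Of the other chondroitin sulfate proteoglycans of brain matrix, 6 were tested and all 6 were higher in MGE cells at E18.5. Their median was 2.33 against -0.02 for all genes, of which 13% were higher. On average Acan and Bcan exceeded the filter level in MGE E18.5 only, the group where they are high, so this count is a description. Cspg5, or neuroglycan C, was 4.19 ± 0.28, the perineuronal net component Acan 3.03 ± 0.26, the brain-specific lectican Bcan 2.45 ± 0.18 and the testican gene Spock1 2.20 ± 0.37. Spock2 followed at 1.64 ± 0.19 and Ncan, the neuronal lectican, at 0.39 ± 0.09. In the earlier comparison only Spock1 (1.37 ± 0.37) and Ncan (0.34 ± 0.09) were higher, and Spock2 was lower at -0.92 ± 0.19. Spock2 thus turned sign between the comparisons in the way Ptprz1 did, and Spock1 was the proteoglycan gene that fell with age in both lineages, by 1.19 in MGE and 2.03 in CGE cells on the log2 scale.

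Tenascins are matrix glycoproteins that bind these proteoglycans, and their 2 genes went separate ways. Tnr, the tenascin of oligodendrocyte lineage cells and some neurons, was 3.90 ± 0.20 higher in MGE cells at E18.5 (adjusted p = 5.8e-08). Its mean exceeded the filter level in MGE E18.5 only, the group where it is high, so this value is a description. Between the earlier groups Tnr was 0.06 ± 0.20, with both means under that level, which says little about an early difference. Tnc, the tenascin of radial glia and astrocytes, was lower in MGE cells early, at -2.48 ± 0.46 (adjusted p = 0.00458), and -1.06 ± 0.46 late, which did not pass the test. Both rose with age in MGE cells, by 3.05 and 1.62, from MGE E14.5 means under the filter level.

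Among the 7 tested ligands, contactin partners and relatives of Ptprz1, 3 were higher in MGE cells at E18.5 and none was lower. Over all tested genes 13% were higher and 9.85% lower. Cntn1, which encodes the adhesion molecule contactin 1 that binds Ptprz1, was 2.57 ± 0.25 early and 5.43 ± 0.25 late. The related phosphatase gene Ptprg was 0.59 ± 0.32 early, not called, and 1.99 ± 0.32 late. Ptn, which encodes pleiotrophin, was -0.65 ± 0.16 early and 1.39 ± 0.16 late, both called, so the ligand turned sign together with its receptor. The related ligand gene Mdk (midkine) was -0.48 ± 0.20 late and did not pass the test.

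Fewer relatives of the other members were measured. Pdgfa, the main ligand of Pdgfra, was 0.62 ± 0.18 higher in MGE cells at E18.5 (adjusted p = 0.0277) and was the other PDGF gene that passed the filter. Of the FACIT collagens, Col16a1 was 2.27 ± 0.21 and Col9a3 1.90 ± 0.25 at E18.5, both called, and neither was called early. Of the LHFPL family, Lhfpl2 was 0.98 ± 0.20 higher at E18.5, and Lhfpl4, at 0.13 ± 0.22, was not called. Of 10 other nucleotide and leukotriene receptors listed, 2 had a probe set with 1 symbol, and neither passed the filter.

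**Figure D5:**
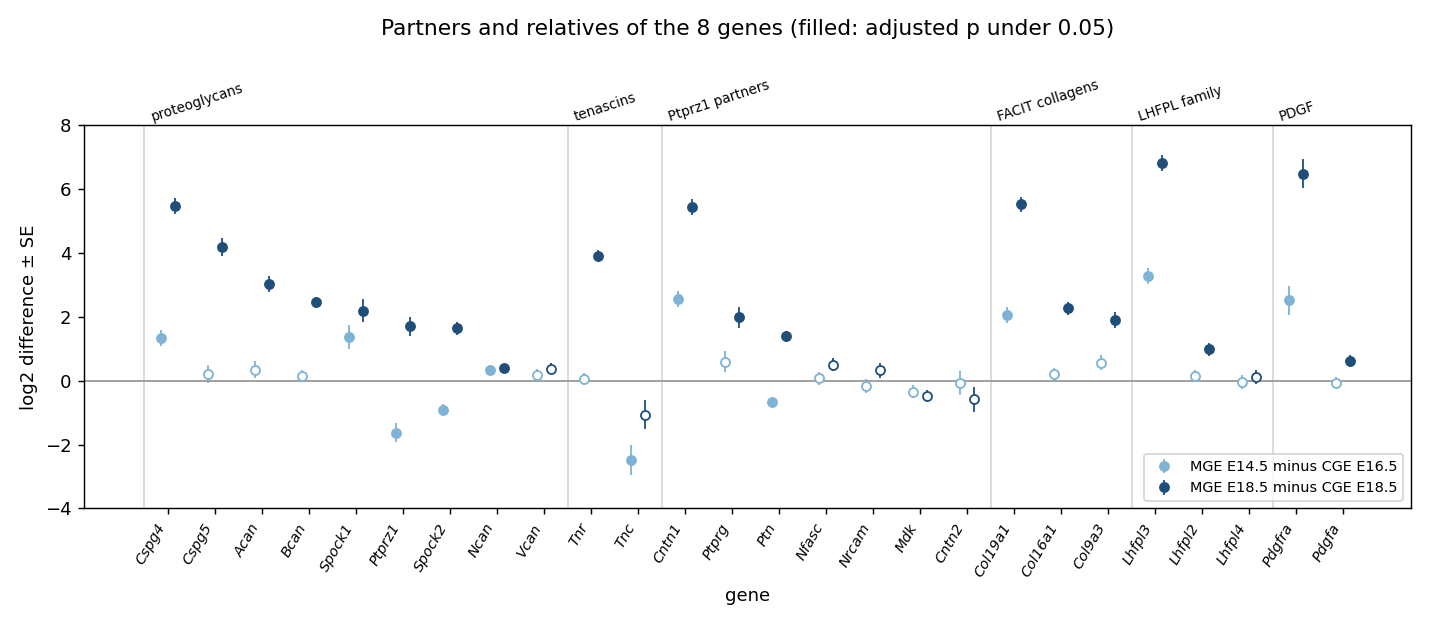
Log2 lineage difference ± SE (vertical axis) of the members and their tested relatives (horizontal axis, by family), between the earlier groups (light) and at E18.5 (dark); filled points had an adjusted p under 0.05. Ptprz1, Spock2 and Ptn lie below 0 early and above 0 late, and Cntn1 stands at 2.57 and 5.43.

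The genes with the most similar pattern were found by centring each gene on its own mean over the 12 arrays and taking the root mean square (RMS) of the log2 difference. Nearest to Pdgfra were Olig1 (0.48), Nkx2-2 (0.61), Sox10 (0.69), Cntn1 (0.83) and Cspg4 (0.83), where the median over all genes was 2.85. Nearest to Cspg4 were Gatm, an enzyme gene of creatine synthesis (0.38), and Sox10 (0.38). Nearest to Gpr17 were Calcrl, a peptide receptor gene (0.14), and Afap1l2 (0.17), which like Gpr17 and Scrg1 were bright in MGE E18.5 only. Nearest to Scrg1 were the endothelin receptor gene Ednrb (0.38) and Tmem132d (0.39).

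Ptprz1 again stood apart, with its ligand gene Ptn (0.43) and the noncoding RNA gene Ipw (0.47) nearest. Nearest to Lhfpl3 were Cntn1 (0.76) and Col19a1 (0.77), and nearest to Col19a1 were the kinase gene Prkcq (0.63) and Vxn (0.67). For Vcan the nearest genes, Galnt1 and Dcp2, were at 0.14 and 0.15, but Vcan itself varied by only 0.28 around its mean, and the median over all genes was 0.41. Among the members, Cspg4 and Gpr17 (0.47) and Gpr17 and Scrg1 (0.48) were the closest pairs, and Lhfpl3 and Vcan (2.59) and Pdgfra and Vcan (2.62) the farthest. All these distances are over the same 12 arrays and largely reflect the 4 group means.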

How the data were processed

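RNA of FACS-sorted cortical cells was amplified (NuGEN Ovation Pico) and hybridised to Affymetrix mouse whole-genome arrays. The authors background-corrected and normalised the arrays in Bioconductor and deposited log2 values of 27094 probe sets. The submitters' processing notes name MAS5, with no version, and no per-probe detection calls were used here. Of these probe sets, 34 controls, 571 with several symbols and 4150 with none were left out. Values entered limma 3.58.1 (R 4.3.3) as deposited: 1 mean per group over all 12 arrays, contrasts and eBayes, two-sided, with Benjamini-Hochberg adjustment over the 8791 genes or 16000 probe sets tested and a threshold of 0.05. A probe set had to exceed its array's 40th percentile on at least 3 arrays, and the one with the highest mean stood for its gene. The fit had 8 residual and 3.60 prior degrees of freedom, and 3 arrays per group limit the precision. Errors are SE of the fitted difference. The fit was tested on simulated data.

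The named genes were the 8 members, up to 4 leading called genes of each list with up to 2 called the other way, and the nearest genes by pattern. Others named for context were chosen after their values were seen. The members, the lists and the relatives were chosen with earlier results of these data known, and no list was tested as a set. Alternatives were other filters, other probe set choices, median centring, quantile normalisation, a trended and robust eBayes, array weights, a replicate block, only the groups compared, leaving out each array (with the same probe sets kept), and averaging MGE E14.5 replicates 1 and 2.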

Additional observations from a re-analysis of the deposited data

Results flagged for a closer look

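For 7 of the 8 genes the change with age in MGE cells differed from the change with age in CGE cells in a direct test of the difference of the 2 changes (limma interaction, adjusted over all genes tested, where 8.62% of genes were called). For Pdgfra the MGE change of 4.52 exceeded the CGE change of 0.55 by 3.97 ± 0.64 on the log2 scale (adjusted p = 0.00207). For Cspg4 4.24 against 0.10 gave 4.13 ± 0.37 (adjusted p = 2.2e-05). For Gpr17 4.89 against -0.11 gave 4.998 ± 0.27 (adjusted p = 1.4e-06). Gpr17, like Scrg1, was above the filter level on the MGE E18.5 arrays only and entered the test through the group where it is high. Pdgfra, Cspg4, Lhfpl3 and Col19a1 were above that level on MGE arrays only, so their CGE changes lie under it. The values of all these genes, Gpr17 and Scrg1 included, are descriptions.

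Ptprz1 stood at 3.19 against -0.15, a difference of 3.33 ± 0.41 (adjusted p = 0.000312). Lhfpl3 stood at 3.01 against -0.55, a difference of 3.56 ± 0.35 (adjusted p = 5.4e-05). Scrg1 stood at 5.79 against 0.65, a difference of 5.14 ± 0.34 (adjusted p = 2.5e-06). Col19a1, with a rise of 2.40 against -1.05, differed by 3.46 ± 0.34 (adjusted p = 4.7e-05), the 1 gene whose called changes went opposite ways. Its CGE fall lay under the filter level, and that call did not hold in every setting. With 3 arrays per group, single arrays were not screened for outlying values.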

How the results depend on the processing

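Across 26 alternative settings, 901 of 912 values of the 8 genes kept their direction and their side of the threshold, 2 lost the call, 2 gained it and 7 turned sign. All 7 calls at E18.5, all 7 of the MGE change and all 7 of the direct test of the 2 changes remained in each setting, as did the 5 calls of the earlier comparison. Each value that turned sign was not called. With the mean of all kept probe sets, Vcan was -0.026 with age in MGE cells and -0.11 in the test of the 2 changes. With age in CGE cells, Ptprz1 was 0.056 with array weights. When single arrays were left out the CGE change was -0.36 to 0.24 for Ptprz1 (above 0 without CGE E16.5 replicate 1, at 0.029, or CGE E18.5 replicate 1), -0.047 to 0.36 for Vcan (below 0 without MGE E18.5 replicate 3, where another of its probe sets had the highest mean) and -0.20 to 0.35 for Cspg4 (below 0 without CGE E18.5 replicate 3).

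The number of members that fell in CGE cells, 1, was 0 with array weights (Col19a1 -1.16, adjusted p = 0.151) and 0 to 1 when single arrays were left out. Vcan passed the test with age in MGE cells with array weights, at 0.40 (adjusted p = 0.0463). The percentage of all genes called moved more. With array weights it was 20.6 in the earlier comparison, 39.7 for the MGE change and 6.21 for the CGE change. It was 1.99 for the CGE change in a fit of those 2 groups alone. Leaving out single arrays gave 6.02 to 11.4 in the earlier comparison, 13.3 to 22.9 for the MGE change and 4.24 to 13.7 for the CGE change. MGE E14.5 replicates 1 and 2 were the closest pair of all (r = 0.99, SD of the difference 0.23). Averaging them as 1 array, an alternative chosen after seeing the data, gave 6.19 in the earlier comparison and 13.8 for the MGE change. The cause was not tested for any of these.

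The replicate numbers did not pair the arrays: of 18 same-number pairs, 4 had deviations from their group means that correlated above 0.1 (range -0.17 to 0.28). With the replicate number as a block, 1 member rose in CGE cells (Scrg1 0.65, adjusted p = 0.0181), and no other call of the 8 genes changed. Signal near background limits the CGE values of 6 genes, and the early values of Gpr17 and Scrg1.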

Other observations

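Besides the proteins themselves, the enzymes that build or cut chondroitin sulfate proteoglycans were read, with 7 tested. At E18.5, 3 were higher in MGE cells: the sulfotransferase genes Chst11 (2.57 ± 0.19) and Chst15 (0.99 ± 0.33) and the proteoglycan-cutting protease gene Adamts5 (1.26 ± 0.21). The related protease gene Adamts4 (-0.88 ± 0.27) and the chain-building enzyme gene Chsy1 (-0.37 ± 0.11) were lower. Over all tested genes 13% were higher and 9.85% lower. Adamts1 was 1.58 ± 0.55 and did not pass the test (adjusted p = 0.0571). The members of this group therefore did not move one way, unlike the 6 other proteoglycan genes tested. Of those, Acan and Bcan on average exceeded the filter level in MGE E18.5 only, so this contrast is a description.

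The 3 probe sets under the filter were left out of the tests. That of Col19a1 read 6.63 to 7.39 on the MGE E18.5 arrays, against 4.27 to 5.06 in MGE E14.5, 4.03 to 4.29 in CGE E16.5 and 3.83 to 4.08 in CGE E18.5, with the same brightest group as the tested probe sets of the gene. Those of Vcan had their lowest means in MGE E18.5, at 4.92 and 3.94, and stayed between 4.51 and 6.80 and between 4.01 and 5.02 in the other groups.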
